A study of Glycine max with 4 samples.

Results

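Soybean sucrose-binding protein was followed through 2 gene models, Glyma10g03390 on chromosome 10 and Glyma02g16440 on chromosome 2, out of 66210 gene models counted. They were chosen by identifier, as homologues of the vicilin-like sucrose-binding protein, with earlier results of these data known. All plants were of the cultivar Williams 82. The 4 libraries of polyadenylated RNA came from green cotyledons of mid-maturation embryos (stage B1, 150 to 250 mg a pair), yellow cotyledons of late-maturation embryos (stage AA1, 200 to 350 mg a pair), whole dry seeds (100 to 250 mg each, with a little seed coat and axis), and cotyledons of seedlings 6 days after imbibition. Each stage has 1 library, and pooling of plants within a library is not described in the labels used here.

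Sucrose-binding protein was first isolated from soybean cotyledons as a membrane-associated protein that binds sucrose, the main sugar delivered to the filling seed. By sequence it belongs to the cupins, the superfamily of the 7S (vicilin) and 11S (legumin) storage globulins, and such proteins are found in the protein storage vacuoles of legume seeds. Storage globulin genes are active in the filling cotyledon, and their proteins are broken down after germination. Soybean carries many genes in duplicate because of ancient whole-genome duplication. A RefSeq table of assembly Glycine_max_v4.0 lists a gene SBP2, synonym SBP, on chromosome 2, and a gene LOC100787186, synonym sbp, on chromosome 10. That table pairs neither entry with the identifiers used here.

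The B1 library was the shallowest, with 16120894 counts, and the AA1 library the deepest, with 38011608. Dry seed gave 21512278 and the seedling 28190429. Levels are given as scaled CPM, the count per 1000000 of a library size that TMM (trimmed mean of M-values) corrects for differences in composition. A count of 3 equals 0.32 scaled CPM at mid-maturation, 0.07 at late maturation, 0.13 in the dry seed and 0.07 in the seedling. Intervals are 95% intervals of counting error and hold no variation between plants or preparations, for which no replicate is at hand. The identifiers carry no product names, so the tissue labels were not checked against marker genes. In bulk tissue, fewer cells that carry a transcript and less of it per cell cannot be told apart.

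Glyma10g03390 was most abundant in the mid-maturation cotyledon. It had 107526 counts at mid-maturation, 16628 at late maturation, 1334 in the dry seed and 58 in the seedling. As levels these were 11484 scaled CPM at mid-maturation (11416 to 11553), 415 at late maturation (409 to 421), 57.3 in the dry seed (54.2 to 60.4) and 1.36 in the seedling (1.04 to 1.76). Each library was lower than the one before it, by more than the counting intervals. It took 0.667% of all B1 counts and stood at place 21 by read count in that library. Its place was 218 at late maturation, 2949 in the dry seed and 27404 in the seedling, where 44565 gene models had at least 1 read.

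Glyma02g16440 kept its level through maturation and into the dry seed far more closely. It had 28924 counts at mid-maturation, 48741 at late maturation, 35948 in the dry seed and 80 in the seedling. As levels these were 3089 scaled CPM at mid-maturation (3054 to 3125), 1216 at late maturation (1206 to 1227), 1543 in the dry seed (1527 to 1559) and 1.88 in the seedling (1.49 to 2.34). The 3 seed libraries were within a factor of 2.54 of each other, and the seedling library stood far below all of them. Its share of all counts was 0.179% at mid-maturation, 0.128% at late maturation and 0.167% in the dry seed. By read count it held places 41, 77 and 48 in those libraries, and place 25622 in the seedling.

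**Figure D1:**
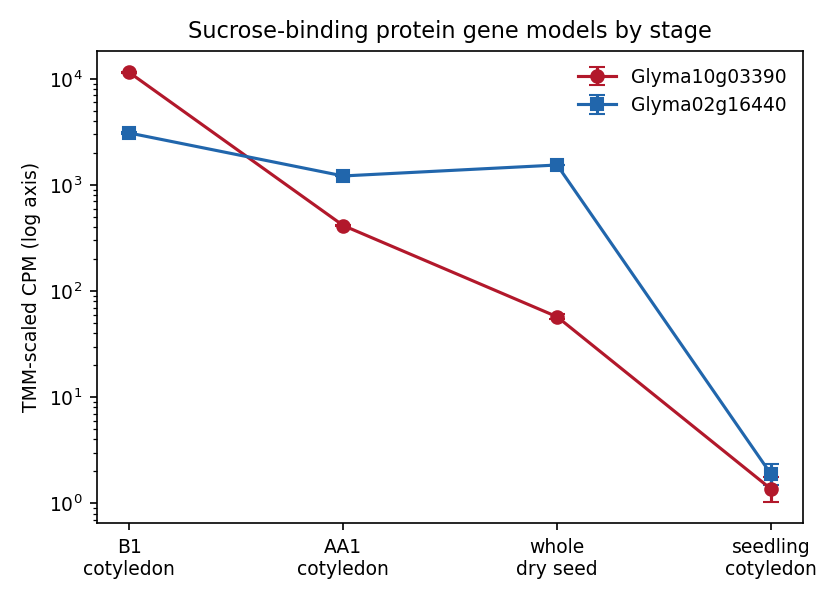
Level of each gene model in the 4 libraries, as TMM-scaled CPM on a log axis, not corrected for gene length; bars are 95% Poisson intervals and are smaller than the markers except in seedlings. Glyma10g03390 goes from 11484 in B1 to 57.3 in dry seed, while Glyma02g16440 goes from 3089 to 1543, and both are under 2 in seedlings.

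The balance between the gene models turned over between mid-maturation and dry seed. The ratio of their reads within a library needs no scaling between libraries. Read counts are not corrected for length, so a ratio at a single stage is one of reads and not of molecules, but length cancels when ratios are compared between stages. In B1, Glyma10g03390 had 3.72 reads for each read of Glyma02g16440 (3.67 to 3.77) and held 78.8% of the pair's 136450 reads. In AA1 the ratio was 0.341 (0.335 to 0.347), and its share was 25.4% of 65369 reads. In dry seed the ratio was 0.037 (0.035 to 0.039), and its share was 3.58% of 37282 reads. In seedlings the ratio was 0.725 (0.508 to 1.03) over only 138 reads. At this depth the seedling interval includes equal read numbers, and the share of Glyma10g03390 lay between 33.7% and 50.7%.

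Relative to Glyma02g16440, Glyma10g03390 dropped 10.9-fold from B1 to AA1 (10.7 to 11.1) and a further 9.19-fold from AA1 to dry seed (8.68 to 9.74). From B1 to dry seed the ratio of the pair moved 100.2-fold (94.7 to 106). From dry seed to seedling it moved the other way, 19.5-fold toward Glyma10g03390 (13.6 to 27.9), as Glyma02g16440 fell by more over that step. None of these intervals includes an unchanged ratio. For the changes that involve dry seed, tissue cannot be told apart from stage, as only that library holds some seed coat and axis. How reads that map to both gene models were counted is not given in the sources used here, and dropping, splitting or adding such reads would each give a different ratio. The part of shared reads in these ratios was not tested.

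**Figure D2:**
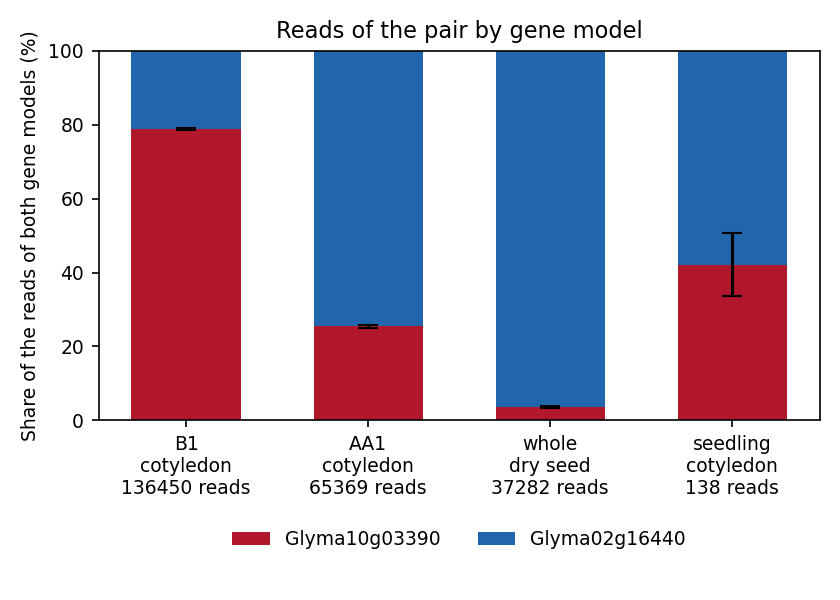
Share of the summed reads of both gene models that belonged to each, in percent, per library, with the number of reads under each bar; black bars are exact 95% binomial intervals for Glyma10g03390. Its share goes from 78.8% in B1 to 25.4% in AA1 and 3.58% in dry seed, and is 42.0% of 138 reads in seedlings.

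From mid- to late-maturation cotyledons, as the embryo turned from green to yellow, Glyma10g03390 was 27.7-fold lower (27.2 to 28.1) and Glyma02g16440 was 2.54-fold lower (2.50 to 2.58). At a distance of 4-fold, 1 of the 2 gene models was lower, against 16.6% of the 29154 gene models that reached 1 scaled CPM in at least 1 of these libraries. Of these, 3.68% fell more than Glyma10g03390 and 23.1% fell more than Glyma02g16440. Both belonged to the 100 gene models with the highest scaled CPM in B1, whose median log2 fold was -1.65, against 0.19 for all gene models. Among the other 99 of these, 19 fell more than Glyma10g03390 and 58 fell more than Glyma02g16440. The 100 were chosen by abundance in the earlier library, here and in each comparison below, which can by itself lower their median. How much of the median this accounts for was not tested. The size of this step depends on the scaling. With plain total counts the log2 fold was -3.93 in place of -4.79 for Glyma10g03390, and -0.48 in place of -1.34 for Glyma02g16440.

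Between late-maturation cotyledons and whole dry seeds the gene models moved in opposite directions. Glyma10g03390 was 7.25-fold lower in dry seed (6.85 to 7.67), and Glyma02g16440 was 1.27-fold higher (1.25 to 1.29). The size of that small rise depended on the scaling. Its log2 fold was 0.34 with TMM and ran from 0.14 to 0.45 with 4 other scalings. Again 1 of the 2 was at least 4-fold lower, against 9.75% of 26397 gene models. Of all gene models, 4.56% fell more than Glyma10g03390, while 38.0% rose more than Glyma02g16440. Of the 100 most abundant in AA1, 77 were lower in dry seed, and their median log2 fold was -0.67. Glyma02g16440 was one of the 100, and 10 of the other 99 had a higher fold. Glyma10g03390 was not among the 100, and 3 of them fell more than it did. Only the dry-seed library holds some seed coat and axis. In this step, and in every other comparison with dry seed, tissue cannot be told apart from stage. The summed level of both gene models was 1632 scaled CPM at late maturation and 1600 in the dry seed. The ratio of these sums was 0.98 (0.97 to 0.99), and its direction turned with total counts (log2 fold 0.011) and with DESeq2 size factors (0.076).

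By 6 days after imbibition both transcripts were under 2 scaled CPM. From dry seed to seedling cotyledons Glyma02g16440 was 820-fold lower (659 to 1035) and Glyma10g03390 was 42.0-fold lower (32.3 to 55.6). On the log2 scale these are -9.68 and -5.39, and with 1 scaled CPM added to each level they were -9.07 and -4.62. Here 2 of the 2 were at least 4-fold lower, against 15.7% of 31169 gene models. Only 8 of these 31169 fell more than Glyma02g16440, and 473 fell more than Glyma10g03390. Counts under 3 were set to 3, or 0.07 scaled CPM in the seedling. Gene models at low levels in dry seed could therefore not fall as far, so these ranks partly reflect the level in dry seed. A steep fall was common among abundant dry-seed transcripts: of the 100 most abundant in dry seed, 91 were at least 4-fold lower in seedlings, with a median log2 fold of -6.75. Of the other 99 of these, 4 fell more than Glyma02g16440. Glyma10g03390, at 57.3 scaled CPM in dry seed, was not among the 100, and 65 of them fell more than it did. The summed level went from 1600 to 3.25 scaled CPM, a fall of 493-fold (417 to 587).

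**Figure D3:**
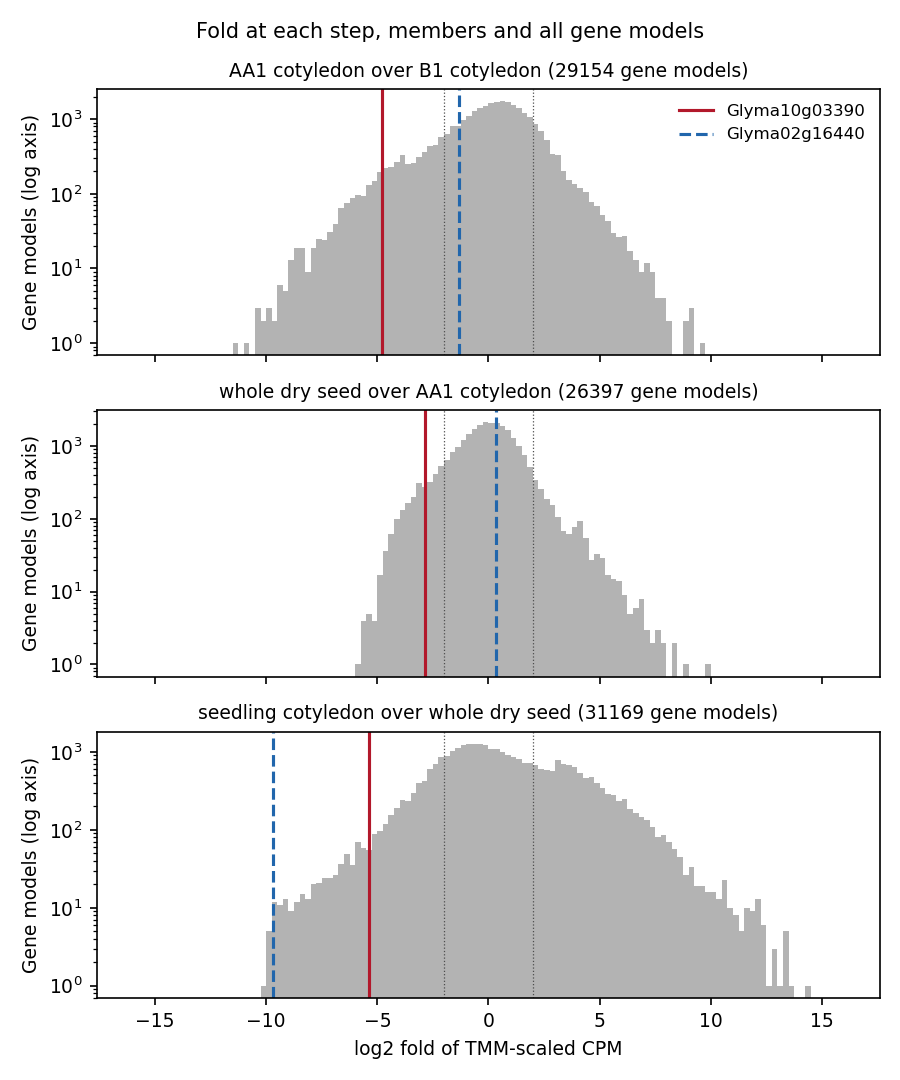
Number of gene models (log axis) by log2 fold of TMM-scaled CPM for each consecutive step, counts under 3 set to 3, with dotted lines at 4-fold; lines mark the members. Glyma10g03390 lies at -4.79, -2.86 and -5.39 and Glyma02g16440 at -1.34, 0.34 and -9.68, the last at the far left edge of the distribution. The floor of 3 counts keeps gene models at low levels in the earlier library from lying that far left.

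The other pairs of libraries share libraries with the steps above. From B1 to dry seed, Glyma10g03390 was 201-fold lower (190.0 to 212) and Glyma02g16440 was 2.002-fold lower (1.97 to 2.03). With total counts the log2 folds were -6.75 in place of -7.65 and -0.10 in place of -1.001. In that pair 1 of the 2 was at least 4-fold lower, against 24.1% of 29063 gene models. Of the 100 most abundant in B1, 67 were at least 4-fold lower in dry seed, with a median log2 fold of -3.49. The gene models stood on either side of that median, at -7.65 for Glyma10g03390 and -1.001 for Glyma02g16440. From B1 to seedlings, Glyma10g03390 was 8420-fold lower (6513 to 11089) and Glyma02g16440 was 1642-fold lower (1319 to 2071). With total counts the log2 folds were -11.66 in place of -13.04 and -9.30 in place of -10.68. Both were at least 4-fold lower, against 11.8% of 31753 gene models. Of the 100 most abundant in B1, 92 were at least 4-fold lower in seedlings, with a median log2 fold of -9.62. Both members belonged to these 100. Of the other 99, 17 fell more than Glyma10g03390 and 43 fell more than Glyma02g16440. From AA1 to seedlings Glyma10g03390 was 304-fold lower (235 to 401) and Glyma02g16440 was 647-fold lower (519 to 816). At least 4-fold lower were 10.7% of 31121 gene models, and 92 of the 100 most abundant in AA1, whose median log2 fold was -7.82. Of these 100, 48 fell more than Glyma10g03390, which was not among them. Glyma02g16440 was one of the 100, and 27 of the other 99 fell more. With 1 scaled CPM added to each level, the log2 folds from AA1 were -7.46 in place of -8.25 for Glyma10g03390 and -8.72 in place of -9.34 for Glyma02g16440, and from B1 they were -12.25 and -10.07. Their order by size of fall thus depended on the starting stage. This order restates the ratios of the pair given above, as the ratio in B1 was above that in seedlings and the ratio in AA1 below it. When gene models were grouped by the libraries that stood at least 4-fold above all others, both were in the group high in B1, AA1 and dry seed, which held 1120 of 33358 gene models. Glyma10g03390 was also in the group highest in B1 alone (1623 gene models) and in the group high in B1 and AA1 (247).

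The stage profiles of the pair were not each other's nearest match. Likeness was measured over the 4 libraries as the root mean square difference of log2(scaled CPM + 1), with each profile centred on its own mean, among 2633 other gene models that reached 100 scaled CPM in a library. The difference between the members was 2.40, which put Glyma02g16440 at place 125 from Glyma10g03390, and Glyma10g03390 at place 196 from Glyma02g16440. The median difference was 4.63 from Glyma10g03390 and 3.84 from Glyma02g16440. Nearest to Glyma10g03390 were Glyma13g23980 (0.37), Glyma04g08220 (0.43), Glyma02g01590 (0.47), Glyma13g18450 (0.53) and Glyma09g28710 (0.61). All of these were highest in B1 and lower in each later library, as in Glyma04g08220, with 10693 scaled CPM at mid-maturation, 514 at late maturation, 45.5 in the dry seed and 0.28 in the seedling. Nearest to Glyma02g16440 were Glyma15g03030 (0.39), Glyma01g43780 (0.46), Glyma18g32760 (0.49), Glyma10g31750 (0.62) and Glyma09g28930 (0.63). These stayed high in the 3 seed libraries, as in Glyma15g03030, with 52230 scaled CPM at mid-maturation, 17877 at late maturation, 12780 in the dry seed and 34.2 in the seedling. Unlike Glyma02g16440, each of these 5 was lower in dry seed than in AA1. With 4 points a profile holds little detail, and likeness says nothing of function or control.

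**Figure D4:**
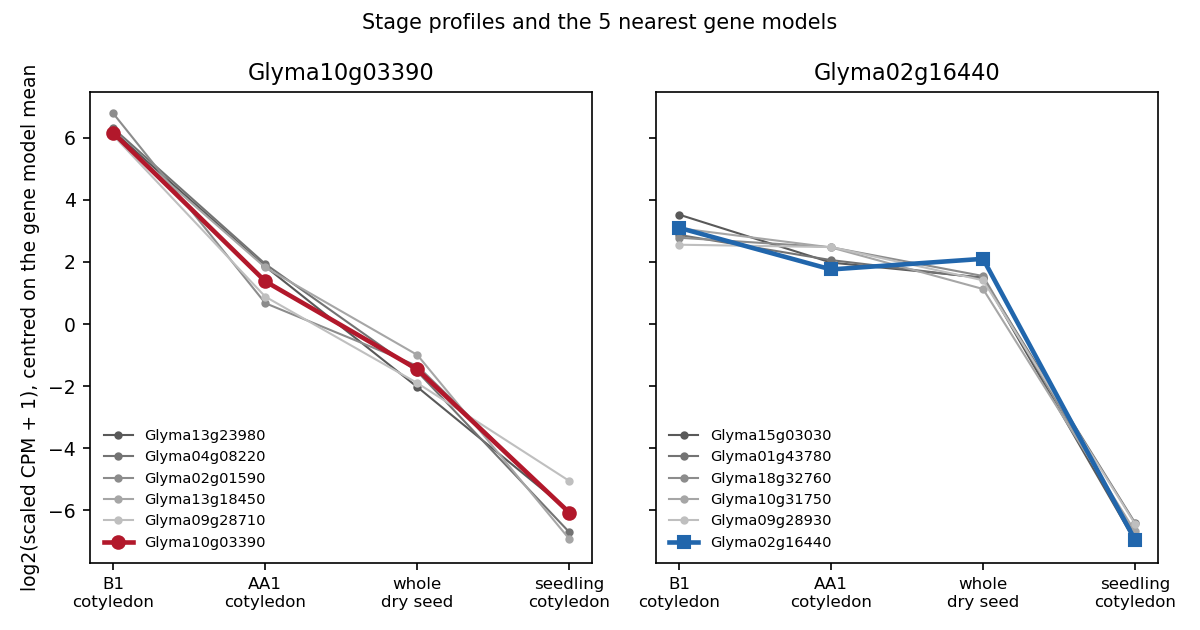
Stage profiles of each member (coloured) and its 5 nearest gene models (grey), as log2(scaled CPM + 1) centred on each gene model's mean over the 4 libraries. The grey lines around Glyma10g03390 fall at every stage, and those around Glyma02g16440 fall mainly between dry seed and seedling; the nearest lie at 0.37 and 0.39 from the member.

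Most neighbours of the gene models on their chromosomes stayed under 10 scaled CPM in every library. Levels here are not corrected for length and are set side by side as reads only. The 10 gene models before and the 10 after each were taken in identifier order along the chromosome. Around Glyma10g03390, 3 of 20 neighbours had no read in any library and 8 reached 10 scaled CPM in some library. Their median was 3.74 scaled CPM at mid-maturation, 3.42 at late maturation, 1.996 in the dry seed and 1.31 in the seedling. The highest was Glyma10g03310, 8 positions away, with 580 scaled CPM at mid-maturation, 3353 at late maturation, 1378 in the dry seed and 2.23 in the seedling. It was highest in AA1, the stage at which Glyma10g03390 had already dropped. The other 7 that reached 10 were Glyma10g03290, Glyma10g03330, Glyma10g03340, Glyma10g03350, Glyma10g03440, Glyma10g03450 and Glyma10g03480, and none passed 61.6 scaled CPM in any library. Around Glyma02g16440, 4 of 20 had no read and 9 reached 10 scaled CPM, with a median of 1.87 scaled CPM at mid-maturation, 3.08 at late maturation, 2.23 in the dry seed and 5.86 in the seedling. The highest level among them was 87.8 scaled CPM, for Glyma02g16390 in seedlings, the library in which Glyma02g16440 was lowest. Others were Glyma02g16340, at 83.6 in AA1, and Glyma02g16550, at 62.8 in dry seed. The remaining 6 that reached 10 were Glyma02g16370, Glyma02g16400, Glyma02g16410, Glyma02g16480, Glyma02g16490 and Glyma02g16540. Directly beside the members, Glyma10g03380, Glyma10g03400, Glyma02g16430 and Glyma02g16450 had at most 70 counts in any library.

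**Figure D5:**
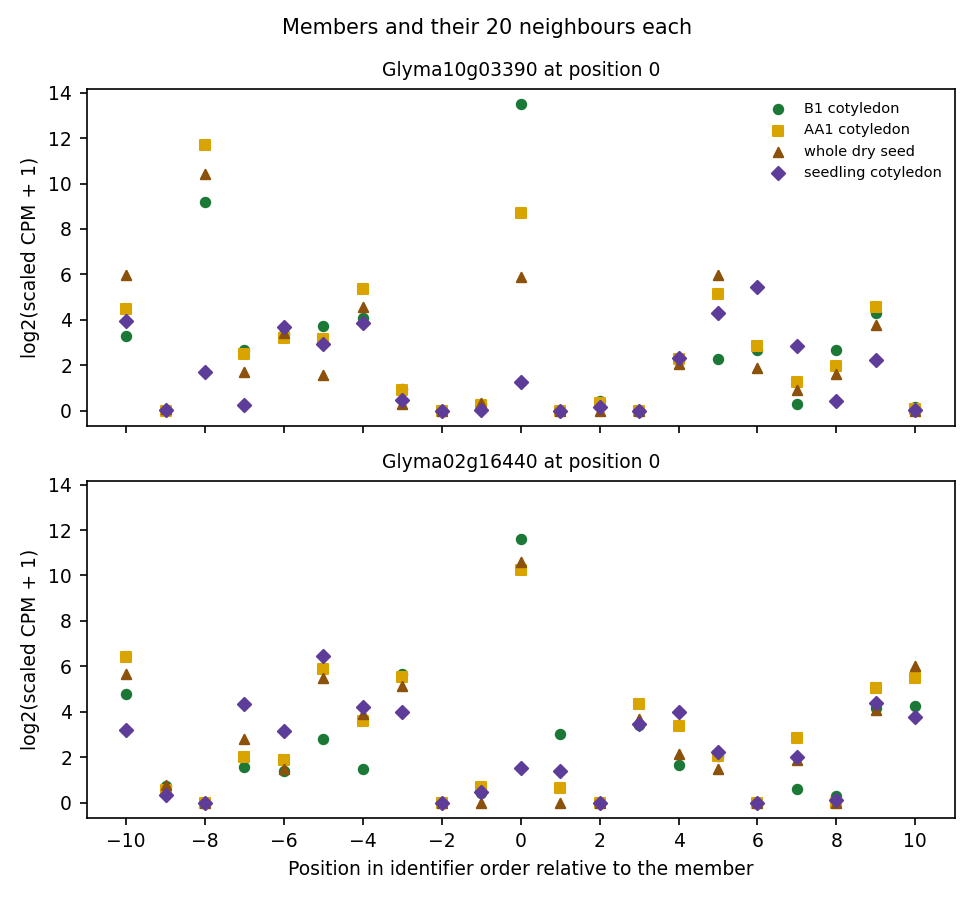
Levels as log2(scaled CPM + 1), not corrected for gene length, of each member (position 0) and the 10 gene models on either side in identifier order, 1 symbol per library. In B1 each member stands above its 20 neighbours. In dry seed Glyma10g03290, Glyma10g03310 and Glyma10g03440 stand above Glyma10g03390, and in seedlings both members lie within the range of their neighbours.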

How the data were processed

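Per the file headers, the deposited files hold the number of mapped reads for each gene model, as raw counts with no normalization. Per the submitters' processing notes, Bowtie was used. Which genome build, annotation and counting program were used, and how reads with more than 1 mapping place were counted, is not given in the sources used here. Per the labels' protocols, 100 ng of poly-A RNA from 2 rounds of selection was fragmented, copied with random primers, amplified for 15 cycles and read once over 76 bp. No step marks strand and no molecular identifier is named. The intervals cover the counting error of reads only and take each read as independent. Copies made in amplification would make them too narrow, and this was not tested.

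The 4 files list the same 66210 gene models, and both members are in each. Library sizes were scaled with TMM (trimmed mean of M-values) factors from edgeR 4.0.16 in R 4.3.3, with a factor of 0.581 for mid-maturation (B1), 1.05 for late maturation (AA1), 1.08 for the dry seed and 1.51 for the seedling. Scaled CPM is a count per 1000000 of the scaled library size. Exact 95% intervals came from the Poisson distribution for levels and the binomial distribution for folds, shares and copy ratios, with the conditional distribution of the 4 counts for changes of the copy ratio (scipy 1.17.1). For the 4-fold rule, those reaching 1 scaled CPM in at least 1 library of a pair entered, and counts under 3 were set to 3. That floor limits the fall that gene models with few reads can show, and so the ranks of falls among all gene models. With 1 library per stage there is no test across samples and no p-value, and stage cannot be told apart from library preparation. Likeness of stage profiles is the root mean square difference of log2(scaled CPM + 1) after each profile was centred on its own mean. The 5 nearest are named among gene models that reached 100 scaled CPM, as are flanking gene models that reached 10. Alternatives were 4 other scalings, among them DESeq2 1.42.0 size factors, other filters and pseudocounts, and thinning to 16120894 counts. The calculations were tested on simulated data. Members and rules were chosen with earlier results of these data known.

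None of the 66210 identifiers matched a table of 59048 RefSeq genes of assembly Glycine_max_v4.0, so gene lengths, coordinates, sequences and names of other gene models are not used here, and the planned list of related storage proteins was not run. Chromosome numbers were read from the identifiers.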

Additional observations from a re-analysis of the deposited data

How the results depend on the processing

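The copy ratios and their changes kept direction and moved by less than their intervals when 1 count was added to each gene model or when libraries were thinned to 16120894 counts. The seedling values rest on 58 and 80 counts, so depth limits them most. Folds below are on the log2 scale. Totals without the 100 most abundant leave out the 100 most abundant of each of the 4 libraries, 264 gene models in all. For AA1 over B1 (TMM -3.16 for the sum, -4.79 for Glyma10g03390, -1.34 for Glyma02g16440), total counts gave -2.30, -3.93 and -0.48, DESeq2 size factors -3.33, -4.96 and -1.51, the upper quartile -3.33, -4.96 and -1.51, and totals without the 100 most abundant gene models -3.37, -5.00 and -1.55. Thinning gave -3.17 for the sum. For dry seed over AA1 (TMM -0.028, -2.86 and 0.34), the sum turned to 0.011 with total counts and 0.076 with DESeq2 factors, and was -0.049 with the upper quartile and -0.23 without the 100 most abundant. Glyma10g03390 gave -2.75 with DESeq2 factors and -3.06 without the 100 most abundant. Glyma02g16440 gave 0.38 with total counts, 0.45 with DESeq2 factors, 0.32 with the upper quartile and 0.14 without the 100 most abundant. For seedling over dry seed (TMM -8.95, -5.39 and -9.68), total counts gave -8.47, -4.91 and -9.20, and a pseudocount of 1 scaled CPM gave -8.56, -4.62 and -9.07. Totals without the 100 most abundant gave -8.67 for the sum. These scalings shift every gene model of a pair alike, by 0.86 on the log2 scale for total counts in AA1 over B1, where the median of all gene models was then 1.15.

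The number of gene models at least 4-fold lower was 4828 in AA1 against B1, and 2727 with total counts or 2763 at 5 scaled CPM. It was 2575 in dry seed against AA1 (1065 at 5 scaled CPM), 7003 in dry seed against B1 (4392 with total counts, 4114 at 5 scaled CPM), 3737 in seedling against B1 (1524 with total counts) and 3329 in seedling against AA1 (2209 with total counts). At 5 scaled CPM fewer gene models enter, so a lower number there is not by itself a lower share. Of the 5 profiles nearest to Glyma02g16440, 2 remained with a pseudocount of 10. No paired analysis was possible because each stage has 1 library.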
